A study of Rattus norvegicus with 6 samples.

Results

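The adrenergic receptors, a receptor kinase and the adenylyl cyclases through which the heart answers adrenaline and noradrenaline were followed in transplanted hearts of young and aged donors. The group holds 8 of the 22250 rat genes in the deposited table, found there by their symbols and chosen with earlier results of these data known. They are the beta receptors Adrb1 and Adrb3, the alpha-1 receptors Adra1a, Adra1b and Adra1d, the G protein-coupled receptor kinase Grk5, and the adenylyl cyclases Adcy5 and Adcy6. RNA-Seq was performed on left ventricular myocardium of 3 young donor hearts (10 weeks of age, animals 3, 13 and 15) and 3 aged donor hearts (1 year of age, animals 3, 4 and 7). All donors were Sprague-Dawley rats of genotype WT, and every heart had been kept in cold cardioplegic solution, transplanted heterotopically into a young rat, and taken on postoperative day 1. A heterotopic graft is perfused but pumps little blood, and no heart without transplantation was analysed here, so donor age by itself and the aged heart's response to storage and transplantation cannot be told apart. The number 3 occurs in both groups but names different animals.

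Noradrenaline from sympathetic nerves and adrenaline from the blood bind beta receptors, of which beta-1, encoded by Adrb1, is the main one of the ventricular cardiomyocyte. Beta-1 activates the stimulatory G protein, and this drives adenylyl cyclases 5 and 6, the principal cyclases of the cardiomyocyte, to make cyclic AMP, which activates protein kinase A and so raises the rate and force of contraction. The alpha-1 receptors signal through Gq to phospholipase C and protein kinase C. Grk5 phosphorylates activated receptors, after which arrestins bind them and signalling stops. Transplantation cuts the sympathetic nerves of the heart.

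The 250 bases before the annotated start site are given for 3 of these genes, a receptor and a cyclase that were lower in aged donor hearts and the kinase that was not, to show what kind of promoter each has. The sequences are those of RefSeq on the build GRCr8, in which 5 of the 8 genes were matched (Adrb1, Adra1b, Adra1d, Grk5 and Adcy5), written 5′ to 3′ on the strand of the gene. The Adrb1 region is chr1:265776853-265777102 on the plus strand, that of Adcy5 is chr11:79123344-79123593 on the minus strand, and that of Grk5 is chr1:270014086-270014335 on the plus strand. Capitals mark the GC box (GGGCGG, or CCGCCC on the opposite strand), a binding sequence of Sp1 factors, and the core of the cyclic AMP response element (TGACG or CGTCA), which is a part of the whole element TGACGTCA.
Adrb1: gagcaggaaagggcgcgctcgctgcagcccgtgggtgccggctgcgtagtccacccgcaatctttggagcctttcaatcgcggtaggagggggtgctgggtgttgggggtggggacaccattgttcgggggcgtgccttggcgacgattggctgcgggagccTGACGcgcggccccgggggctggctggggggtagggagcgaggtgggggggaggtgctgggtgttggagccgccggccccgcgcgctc
Adcy5: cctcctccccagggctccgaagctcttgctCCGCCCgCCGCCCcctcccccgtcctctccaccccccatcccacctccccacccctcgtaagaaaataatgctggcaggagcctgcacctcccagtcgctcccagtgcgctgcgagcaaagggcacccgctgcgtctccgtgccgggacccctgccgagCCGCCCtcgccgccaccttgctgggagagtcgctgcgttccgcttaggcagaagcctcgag
Grk5: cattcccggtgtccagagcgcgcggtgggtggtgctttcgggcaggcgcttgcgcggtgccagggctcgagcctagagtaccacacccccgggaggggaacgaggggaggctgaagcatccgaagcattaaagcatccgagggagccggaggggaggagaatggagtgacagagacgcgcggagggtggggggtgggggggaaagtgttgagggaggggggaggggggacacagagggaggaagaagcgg

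All 3 regions were rich in G and C, at 72% in Adrb1, 70% in Adcy5 and 67.2% in Grk5, against a median of 51.2% over 33469 rat promoter regions of the same length. Adcy5 held 3 GC boxes, at positions -220, -213 and -61 from the start, and 30.5% of all the regions hold at least 1. Adrb1 held 1 copy of the core TGACG at position -88, which 18.2% of all regions hold on either strand, while none of the 5 matched regions held that whole element (1.59% of all regions) or the E-box CACGTG (5.59%). The regions of Adra1b and Adra1d, also lower in aged donor hearts, and that of Grk5 held neither a GC box nor the core. These matches describe the letters of the windows and say nothing of binding in these hearts.

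The libraries held 21457509 to 22277905 counted reads in young and 22508040 to 24560869 in aged donor hearts, and levels are given as CPM, counts scaled to the library size by TMM. The smallest number taken as a signal, 3 counts, is 0.122 to 0.14 CPM before TMM. Aged animal 3 and young animal 15 stood apart from the other hearts of their groups, and the counts of young animal 15 were nearer to those of aged animal 4 (chi-square of 98.9 per degree of freedom) than to those of young animals 3 (496) and 13 (529). The summed level of 11 cardiomyocyte markers (cardiac myosins, actin, troponins and related genes) ran from 12940 CPM in young animal 15 to 89405 in the young group and from 149.7 CPM in aged animal 3 to 7032 in the aged group, with 0 of the 11 at 0, and 4 of the 11 were lower past the limits given below and 0 higher. In 9 of the 11 all aged hearts lay below all young hearts. Tnni3 and Myh7 overlapped, Myh7 at 830.2 to 1039 CPM in young and 10.6, 450.5 and 1843 CPM in aged animals 3, 4 and 7. Neutrophil markers summed to 133.7 to 192 CPM in young and 445.6 to 1482 CPM in aged donor hearts (7 of 10 higher), and macrophage markers to 298.6 to 1082 and 1177 to 2749 CPM (5 of 10 higher). T cell markers were at 29.5 to 80.6 and 96.2 to 145.5 CPM (2 of 6 higher). Most of that sum's difference was Cd8a, at 2.42, 0.89 and 55.8 CPM in young animals 3, 13 and 15. In aged animals 3, 4 and 7 it was at 99.0, 88.3 and 63.8 CPM. Cd2 (0.509 to 1.51 against 5.52 to 7.46 CPM) and Lck (3.37 to 3.93 against 4.48 to 6.80 CPM) were also above. Cd3d, Cd3g, Cd3e and Cd4 overlapped, Cd3e at 0.289 to 1.34 against 0.46 to 1.71 CPM. As these markers differ among themselves, the sum is not read as more T cells. Fibroblast markers were at 6576 to 8198 and 2095 to 4283 CPM (3 of 7 lower). Most of that sum was collagen, with Col3a1 at 3689 to 4766 against 1083 to 2007 CPM. Col1a1 was at 1576 to 2661 against 216.7 to 1031 CPM, and Dpt was also below in all aged hearts. Dcn, Lum, Tcf21 and Pdgfra overlapped, Pdgfra at 113.8 to 258.9 against 218.2 to 430.1 CPM. For this reason the fibroblast sum is not read as fewer fibroblasts. The sums of endothelial, smooth muscle, adipocyte, neuronal and red blood cell markers overlapped between the groups. Cldn5 of endothelial cells and Adipoq of adipocytes were listed at 0. In such bulk tissue, fewer cells of a type and less RNA per cell cannot be told apart.

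Transcripts of the beta-1 receptor, all 3 alpha-1 receptors and both cyclases were lower in aged than in young donor hearts, by 3.86-fold (Adcy6) to 9.3-fold (Adra1b), except when libraries were scaled to the cardiomyocyte markers, where their differences turned positive without passing the limits. Grk5 was 1.38-fold higher. By edgeR's quasi-likelihood test and the limits of the study (more than 1.5-fold or less than 0.67-fold, at an unadjusted p-value under 0.05), 6 of the 7 genes with reads were lower, against 19.0% of the 13784 genes tested, and 0 were higher, against 13.2% of all genes. The same 0 of 7 were higher by DESeq2 and by limma-voom, and the unadjusted p-value was under 0.05 for 7 of the 7. In CPM, the 3 aged donor hearts all lay below the 3 young donor hearts for 6 of the 7, where 20.6% of all genes did so, and all above for 1, where 21.0% did, and each exact permutation p-value was 0.1, the smallest possible with 3 hearts against 3. The count of 6 lower and 0 higher was the same with young animal 15 and aged animal 3 both left out. After Benjamini-Hochberg adjustment in edgeR, 0 of the 7 and 0 of the 13784 genes had a p-value under 0.05 (smallest adjusted p 0.0916), although 4731 genes had an unadjusted p-value under 0.05, while DESeq2 gave 6 of the 7 genes and 3592 in all, and limma-voom 7 of 7 and 8416 in all.

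**Figure D1:**
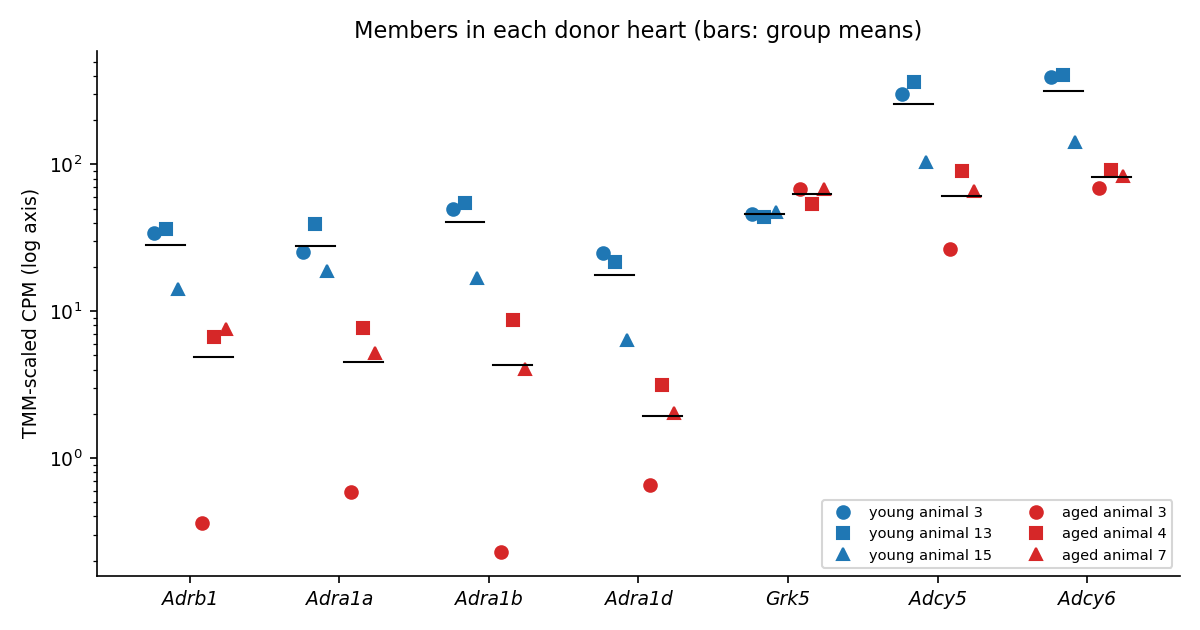
Level of the 7 genes with reads in each of the 6 donor hearts, in TMM-scaled CPM on a log axis, with young donor hearts in blue, aged donor hearts in red and bars at the group means. For the receptors and cyclases every red point lies below every blue one, aged animal 3 is the lowest and young animal 15 the lowest of the young group, while for Grk5 the aged points lie between 53.5 and 68.3 CPM, above the young points at 44 to 47.4 CPM.

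Adrb1 (ENSRNOG00000017002, chr1:277537585-277538985, plus strand of Rnor_6.0), whose promoter is printed above, is given in the table as a single block of 1401 bases. Its level was 34.2 CPM in young animal 3, 36.1 in animal 13 and 14.2 in animal 15, and 0.361, 6.71 and 7.51 CPM in aged animals 3, 4 and 7. The counts behind the aged values were 11, 177 and 196 reads, so the lowest rests on few reads. Aged donor hearts were at 4.86 ± 3.92 CPM (SD, n = 3) and young donor hearts at 28.2 ± 12.1 CPM (SD, n = 3), a log2 fold change of -2.53 with a standard error of 0.981 (edgeR, Benjamini-Hochberg adjusted p = 0.13). No aged heart reached the lowest young heart, which stood 1.89 times above the highest aged one, and aged animal 3 lay far below the others.

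Of the 6 calls, that for Adrb1 was lost most often when a heart was left out. It was lost without young animal 3 (log2 fold change -2.37), young animal 13 (-2.31), aged animal 4 (-2.83) or aged animal 7 (-2.99), and with library totals in place of TMM (-2.03). With both hearts that stood apart left out, it was past the limits at -2.26.

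Adrb3 (ENSRNOG00000012674, chr16:69003868-69006632, plus strand), the beta-3 receptor, which is best known from fat cells, was listed at 0 reads in all 6 hearts and was not tested. Fth1, a ferritin gene that every cell uses, was also listed at 0 in all 6 hearts, so a listed 0 in this table is not read here as absence of a transcript.

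By fold, the alpha-1 receptors differed most of the group, although standard errors of 0.742 to 1.12 put them within error of Adrb1. Adra1b (ENSRNOG00000060087, chr10:29392762-29450644, minus strand) encodes the alpha-1B receptor, one of the subtypes of the cardiomyocyte, and was at 49.97, 54.2 and 16.7 CPM in young animals 3, 13 and 15. In aged animals 3, 4 and 7 it was at 0.23, 8.76 and 4.02 CPM, the first of these from 7 reads. All aged values lay below all young ones, and the log2 fold change was -3.22 with a standard error of 1.12, or 9.3-fold (edgeR, Benjamini-Hochberg adjusted p = 0.112). This call was lost without young animal 3 (-3.03), young animal 13 (-2.94) or aged animal 7 (-3.16), and the difference was -2.99 without young animal 15 and aged animal 3. The size of the fold rested on single hearts, at -4.24 without aged animal 4 and -2.65 without aged animal 3.

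Adra1a (ENSRNOG00000009522, chr15:43298794-43392451, plus strand), encoding alpha-1A, the other main alpha-1 subtype of the cardiomyocyte, was at 25.3, 39.0 and 18.7 CPM in the young hearts in the same order. The aged hearts had 0.591, 7.70 and 5.17 CPM, from 18, 203 and 135 reads. Its groups were the farthest apart of the 7 genes in one respect, the lowest young heart lying 2.43 times above the highest aged heart. The log2 fold change was -2.62 with a standard error of 0.845, or 6.17-fold (edgeR adjusted p = 0.101), the call was lost without aged animal 7 (-2.73), the difference widened to -3.26 without aged animal 4, and the value was -2.28 with both outlying hearts left out.

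Adra1d (ENSRNOG00000021256, chr3:124129558-124145566, minus strand) encodes alpha-1D, a subtype best known from arteries. It was at 24.9, 21.6 and 6.36 CPM in young and 0.657, 3.15 and 2.03 CPM in aged donor hearts, from 20, 83 and 53 reads in the latter. Again no aged heart reached a young one, with a log2 fold change of -3.18 with a standard error of 0.742, or 9.05-fold (edgeR adjusted p = 0.0916). Unlike those of Adra1a and Adra1b, the call held in each of the 6 fits that left out a heart, with log2 fold changes from -3.7 to -2.75.

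The proportions of the alpha-1 subtypes overlapped between the groups. Compared per length, as FPKM, and within a heart, which does not depend on how libraries are scaled, the alpha-1A share of summed alpha-1 transcripts was 30.3%, 39.7% and 50.8% in young animals 3, 13 and 15 and 47.9%, 45.2% and 52.4% in aged animals 3, 4 and 7. The means differed by 8.23 points (exact permutation p = 0.3, two-sided, with 3.25 to 13.5 points when a heart was left out). Alpha-1B made up 37.2 to 49% in young and 15.2 to 42% in aged hearts, and alpha-1D 12 to 20.7% and 12.8 to 36.8%. The lowest alpha-1B and highest alpha-1D share were both in aged animal 3, where only 45 alpha-1 reads were counted.

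**Figure D2:**
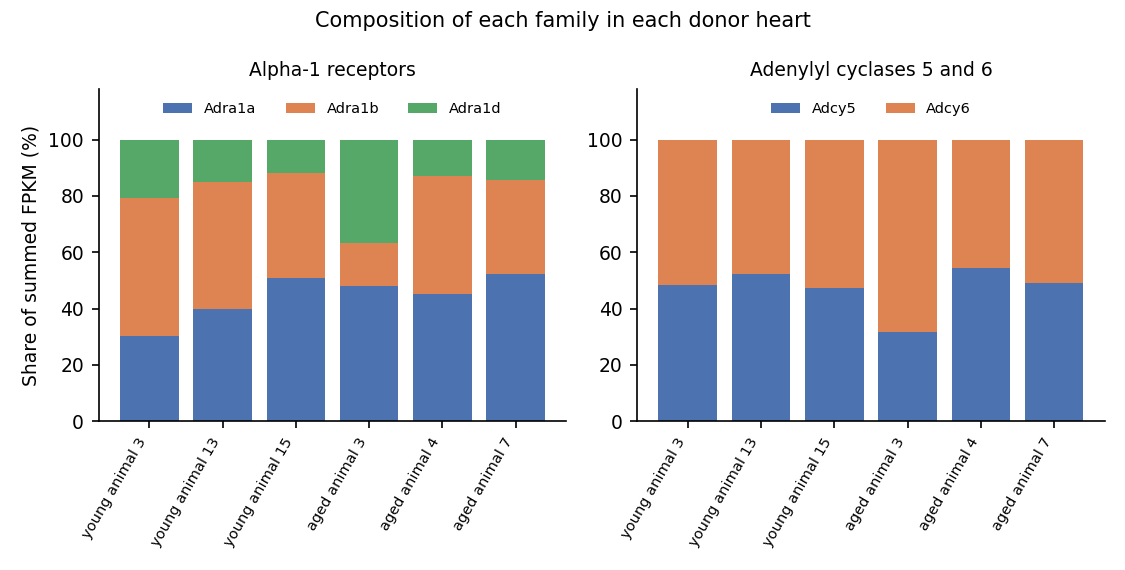
Make-up of the alpha-1 receptors and of cyclases 5 and 6 in each donor heart, as the percentage of the family's summed FPKM that each gene gives. Adra1a takes 30.3 to 50.8% of the alpha-1 bar in young and 45.2 to 52.4% in aged donor hearts, and the Adcy5 share also overlaps between the groups, with aged animal 3 the lowest at 31.8%.

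Both cyclases were lower. Adcy5 (ENSRNOG00000002229, chr11:68695839-68842320, minus strand), the cyclase with 3 GC boxes in the promoter printed above, was at 302.5, 364.6 and 104.3 CPM in young animals 3, 13 and 15, and at 26.4, 89.96 and 65.4 CPM in aged animals 3, 4 and 7. The groups came close to each other, the lowest young heart (animal 15) being 1.16 times the highest aged heart (animal 4). The log2 fold change was -2.09 with a standard error of 0.618, or 4.24-fold (edgeR adjusted p = 0.0942).

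Adcy6 (ENSRNOG00000054757, chr7:140270692-140291620, minus strand) was at 396.3, 408.9 and 142.3 CPM in the young and 69.4, 92.1 and 83.8 CPM in the aged hearts. Here aged animal 3 was not far below the other aged hearts, unlike for the receptors and Adcy5, and the aged group was narrow, at 81.8 ± 11.4 CPM (SD, n = 3). The log2 fold change was -1.95 with a standard error of 0.432, or 3.86-fold, the smallest standard error of the 6 lower genes (edgeR, Benjamini-Hochberg adjusted p = 0.0916).

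The calls of both cyclases held without any single heart, with log2 fold changes from -2.48 to -1.72 for Adcy5 and from -2.26 to -1.72 for Adcy6. Adcy5 made up 48.4%, 52.3% and 47.4% of the summed FPKM of the pair in the young hearts and 31.8%, 54.6% and 49% in the aged hearts. This share did not separate the groups (difference of -4.24 points, exact permutation p = 0.9, two-sided) and the difference turned to 2.41 points without aged animal 3.

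Grk5 (ENSRNOG00000011439, chr1:282265370-282462605, plus strand) was the gene that went the other way. It was at 46.0, 44 and 47.4 CPM in young animals 3, 13 and 15 and at 68.1, 53.5 and 68.3 CPM in aged animals 3, 4 and 7. Young animal 15, whose receptor and cyclase levels were 0.274 to 0.58 times the mean of the other young hearts, was at 1.05 times that mean here, and aged animal 3 was not low either. The log2 fold change was 0.47 with a standard error of 0.167 (edgeR adjusted p = 0.116), a 1.38-fold difference that misses the fold limit of 1.5. With library totals alone it was 0.91 and with cardiomyocyte scaling 6.64, both past the limits, and leaving out 1 heart gave 0.42 to 0.58.

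**Figure D3:**
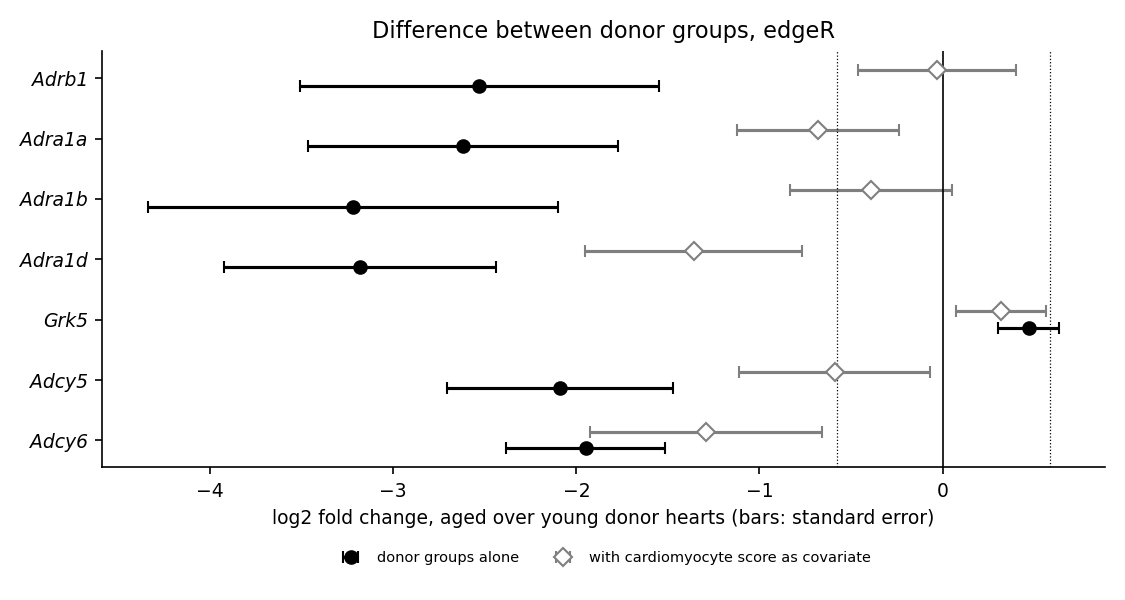
Log2 fold change of each gene between aged and young donor hearts with its standard error in edgeR, from the donor groups alone (filled) and with the cardiomyocyte score of each heart as a covariate (open), the dotted lines marking the fold limits. The filled points of the receptors and cyclases lie between -3.22 and -1.95 and the open points between -1.36 and -0.03, while Grk5 stays above 0 in both.

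Levels of different genes can be compared only per length. In young donor hearts the cyclases came first, at 42.4 ± 14.3 FPKM for Adcy6 and 42.2 ± 16.7 for Adcy5 (SD, n = 3), which did not differ beyond their spread. By group mean Grk5 (16.9 ± 4.38 FPKM), Adrb1 (16.2 ± 4.51), Adra1b (12.9 ± 4.86) and Adra1a (11.2 ± 2.48) followed, each within the spread of its neighbour across hearts. Within hearts the place of Grk5 varied, at rank 5 in young animal 3, rank 6 in animal 13 and rank 3 in animal 15. Adra1d was the lowest gene with reads in each young heart, at 4.74 ± 2.15 FPKM.

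In aged donor hearts Grk5 ranked first in 3 of 3 hearts, at 31.7 ± 5.35 FPKM (SD, n = 3), above Adcy6 (16.1 ± 1.52) and Adcy5 (14.5 ± 7.19), which did not differ beyond their spread. The receptors lay lower, at 3.98 ± 3.2 FPKM for Adrb1, 2.52 ± 1.99 for Adra1a, 1.99 ± 1.93 for Adra1b and 0.761 ± 0.467 for Adra1d, each within the spread of the next across hearts. Compared within hearts, Adrb1 and Adra1a lay above Adra1b in each of the 3 aged hearts. Adra1a lay above Adrb1, and Adra1d above Adra1b, in aged animal 3 alone. A cyclase ranked first in each of the 3 young hearts. Per transcript of the beta-1 receptor, Grk5 stood at 0.802, 0.727 and 1.99 in young animals 3, 13 and 15 and at 112, 4.75 and 5.41 in aged animals 3, 4 and 7. This ratio was chosen after its values were seen, and the 112 rests on 11 Adrb1 reads. Its groups must separate, because Grk5 was above and Adrb1 below in all aged hearts. Grk5 over Grk2 overlapped, at 0.476 to 0.606 in young and 0.413 to 0.574 in aged hearts.

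The receptor and cyclase levels followed the cardiomyocyte markers from heart to heart. The cardiomyocyte score, the mean log2 CPM of the 11 markers, was 11.86, 11.99 and 9.65 in young animals 3, 13 and 15 and 3.22, 8.75 and 8.48 in aged animals 3, 4 and 7, the same order as that of Adrb1 except that aged animals 4 and 7 change places. As the score itself does not overlap between the groups, donor age and cardiomyocyte RNA content cannot be told apart in 6 hearts. With the score as a covariate in edgeR, 0 of the 7 genes passed the limits, and 0 had an unadjusted p-value under 0.05.

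Of the receptors, Adrb1 then had a log2 fold change of -0.03 with a standard error of 0.431, against -2.53 without the covariate. Adra1b was at -0.39, Adra1a at -0.68 and Adra1d at -1.36 with a standard error of 0.593. For the cyclases the values were -0.59 for Adcy5 and -1.29 with a standard error of 0.634 for Adcy6, and Grk5 was at 0.32. Whether the genes differ among themselves in this respect was not tested.

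Taken relative to the score in each heart, log2 CPM minus score, the 4 receptors overlapped between the groups. Adrb1 was at -6.76, -6.81 and -5.81 in the young hearts and -4.38, -5.98 and -5.56 in the aged hearts. Adcy5 was at -3.62, -3.48 and -2.95 in young and 1.5, -2.25 and -2.45 in aged hearts, and so lay above the young hearts in all 3, as did Adcy6 (-3.31 to -2.50 against -2.22 to 2.90) and Grk5 (-6.53 to -4.08 against -3.00 to 2.87). On this scale, which removes as much as the markers fell, no gene of the group was lower in all aged hearts.

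**Figure D4:**
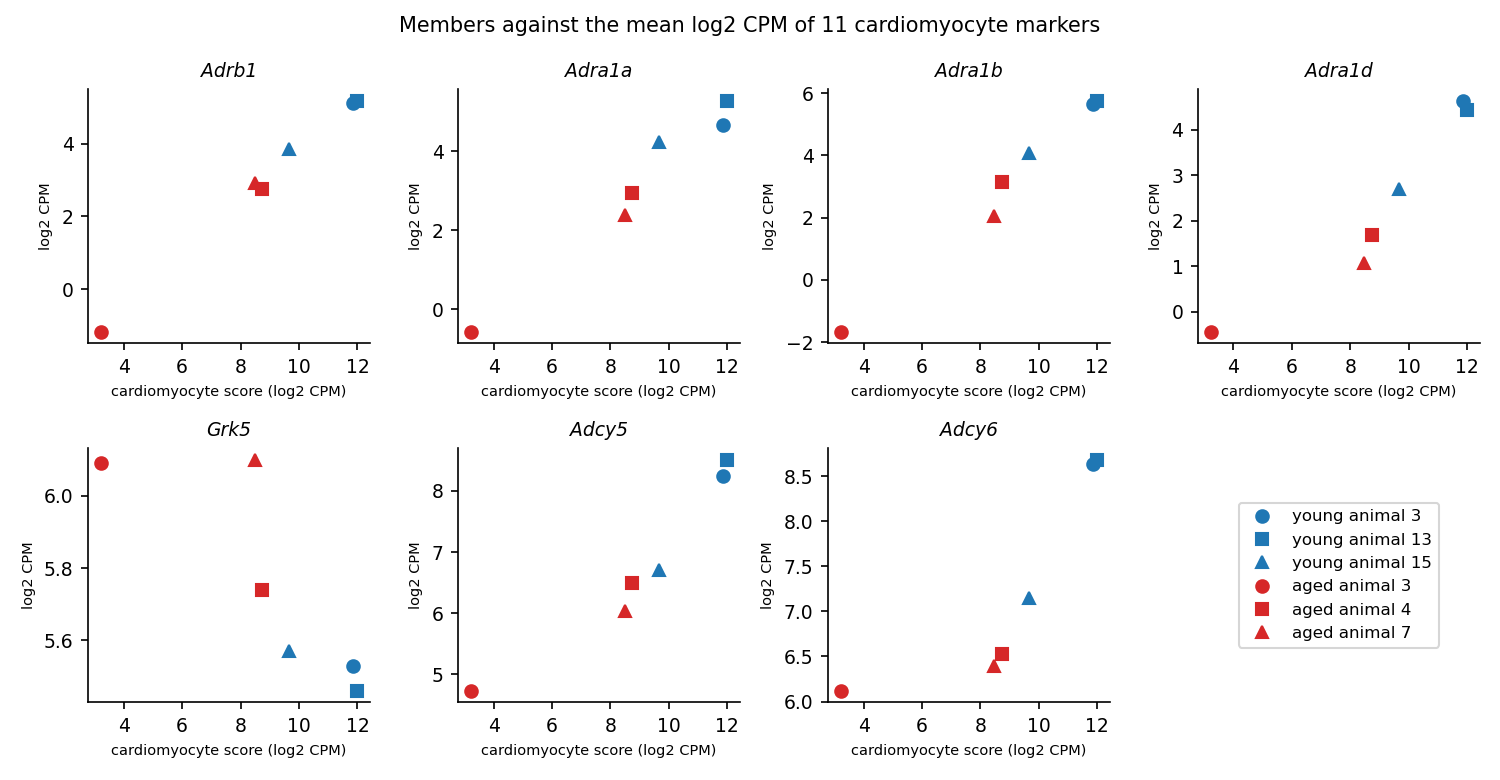
Level of each gene (log2 CPM) against the cardiomyocyte score of the same heart (mean log2 CPM of 11 markers), with 1 point per donor heart, young in blue and aged in red. The receptors and cyclases climb with the score from aged animal 3 (score 3.22) to young animals 3 and 13 (11.86 and 11.99), and Grk5 runs the opposite way.

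Across the 6 hearts, which share depth, scaling and donor group, the log2 CPM of the 3 pairs among Adrb1, Adra1a and Adra1b correlated at Pearson r of 0.98 to 0.99 and Adra1d with Adcy5 at 0.99, whereas Grk5 ran against each of them (-0.91 to -0.81). Such values are common in these hearts, and 505 of 12957 genes had an r over 0.95 with Adrb1, 1491 with Adcy6 and 167 with Grk5. The genes most like Adrb1 were Akap6, which anchors protein kinase A in the cardiomyocyte (r = 0.9988), Acta1, the skeletal alpha-actin, and Usp13, a deubiquitinase. Adra1a was nearest to AABR07025295.1, Pkia, an inhibitor of protein kinase A, and Filip1. The closest to Adra1b were Lmo7, Ccr10 and Plaat1, and to Adra1d Meak7, Inppl1 and Obsl1. For Adcy5 they were Cat, the catalase gene, Ptcd2 and Pebp1, for Adcy6 Gpr157, Cxxc5 and the laminin gene Lama2, and for Grk5 Rybp, Tcf20 and Pawr.

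Genes that stop the receptor signal were higher or did not pass the test. Each list below was read against the 13.2% of all genes tested that were higher and the 19.0% that were lower, and no list was tested against the other genes. Of the other 6 receptor kinases and arrestins, 4 were higher (66.7%) and 0 lower in edgeR (1 of the 6 lay below the young hearts in all aged hearts, Grk4 at -0.30), with a median log2 fold change of 0.85 against 0.02 over all genes. Arrb2, beta-arrestin 2, was at 18.3, 14.2 and 42.7 CPM in young and 96.2, 65.5 and 60.6 CPM in aged hearts, which gives a log2 fold change of 1.56 ± 0.453 (SE), and 2.22 without young animal 15. Grk6 differed by 0.86 and Grk2, the main receptor kinase of the heart beside Grk5, by 0.72 ± 0.216 (SE), and both calls were lost without young animal 3 or 13 (0.72 for Grk6, 0.65 and 0.64 for Grk2), that of Grk6 also without aged animal 3 (0.72). Arrb1 was at 0.84. The neutrophil and macrophage markers, 445.6 to 1482 and 1177 to 2749 CPM in aged against 133.7 to 192 and 298.6 to 1082 CPM in young donor hearts, moved with these genes, and their part in the result was not tested.

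The other adrenergic receptors gave no call, with Adra2b at -0.82 and Adra2a and Adra2c below the filter on low counts. Among the other cyclases 2 of 7 were higher, Adcy7 of blood cells (1.37, and 2.34 without young animal 15) and Adcy4 (0.83), and 2 were lower, Adcy1 (-2.61, and -1.88 and not called without young animal 13) and Adcy9 (-0.65). For Adcy1 young animal 15, at 1.36 CPM, lay among the aged hearts (0.493 to 1.48 CPM). Of the G protein subunits, 4 of 18 were higher (22.2%), among them Gng10 (1.53) and Gng2 (0.89), and 3 were lower (16.7%), among them Gnb5 (-1.20), shares near those of all genes. Gnas, the stimulatory alpha subunit that links beta-1 to the cyclases, has 2 rows in the table, of which ENSRNOG00000047374 with most of the reads was at 436.2, 405.7 and 289.9 CPM in young and 174.4, 230.2 and 209.4 CPM in aged hearts (-0.88). The second row, ENSRNOG00000025889, was at -0.31, and reads shared between the rows make both uncertain.

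Downstream of cyclic AMP, 7 of 18 protein kinase A genes were lower (38.9%, against 19.0% of all genes) and 1 was higher (5.56%, against 13.2%). Prkaca, the main catalytic subunit, was at 297.8, 351.6 and 113.2 CPM in young and 39.7, 65.3 and 48.2 CPM in aged donor hearts (log2 fold change -2.31 ± 0.464 SE). Akap6 was at -2.62, while Akap12, an anchor of many cell types, was higher (2.37 ± 0.518 SE). Phosphodiesterases, which break down cyclic nucleotides, were lower in 7 (43.8%) and higher in 1 (6.25%) of 16, with Pde4c at -4.17, Pde7b at -3.25 and Pde4b, the one that was higher, at 1.18. Pde4c was at 37.4, 39.8 and 1.53 CPM in young animals 3, 13 and 15 and at 2.17, 1.21 and 0.958 CPM in aged animals 3, 4 and 7, so that young animal 15 lay among the aged hearts. Of the other cyclic AMP sensors 1 of 6 was lower, the pacemaker channel gene Hcn2 (-3.58, and -4.44 without aged animal 7), and 0 were higher. For Hcn2 too, young animal 15 (14.3 CPM) lay among the aged hearts (2.07 to 18.6 CPM).

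A list of 11 genes held targets of protein kinase A in the cardiomyocyte, together with Atp2a2, which is not itself a target. Of these 7 were lower (63.6%) and 0 higher, with a median of -3.05, and 4 of the 11 also belong to the cardiomyocyte markers. Pln, phospholamban, was at -4.41 (-5.55 without aged animal 4) and Atp2a2, the calcium pump it restrains, at -3.80. Among genes of the alpha-1 branch 4 of 12 were lower (33.3%), among them Prkce, a protein kinase C (-2.46, and -1.86 without young animal 13), and Plcb4, a phospholipase C (-1.67), while Plcb3 was higher (0.85). Of genes known to respond to cyclic AMP, 4 of 10 were higher (40%), including Fos (2.04, and 3.61 without young animal 15) and Nr4a3 (1.73), and 2 were lower (20%), Ppargc1a, a driver of mitochondrial genes (-4.89, and -5.91 without aged animal 4), and Per1 (-0.62). Of 8 tested genes for catecholamine synthesis, uptake and breakdown, Ddc was lower (-3.55, and -2.96 without aged animal 3). Th, of the same list, was below the filter with 0 to 3 reads in each heart, and is not read here as a measure of the nerves.

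Over these lists together, 18 of 114 tested genes were higher (15.8%, against 13.2% of all genes) and 34 lower (29.8%, against 19.0%), with a median of -0.09. The table's own assignment to the KEGG pathway of adrenergic signaling in cardiomyocytes holds 142 genes, of which 121 were tested. Without the 5 genes it shares with the group, 15 of 116 were higher (12.9%, against 13.2% of all genes) and 34 lower (29.3%, against 19.0%). Of the 28 named pathway genes past the limits, 28 passed them again with young animal 15 and aged animal 3 both left out, 15 in each of the 6 fits without a heart, and 4 with the cardiomyocyte score as a covariate (Akap12, Pde4b, Nr4a3 and Ppargc1a). The lower calls in these lists depended on the scaling, and 34 were lower with TMM, 22 with library totals and 0 with cardiomyocyte scaling.

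**Figure D5:**
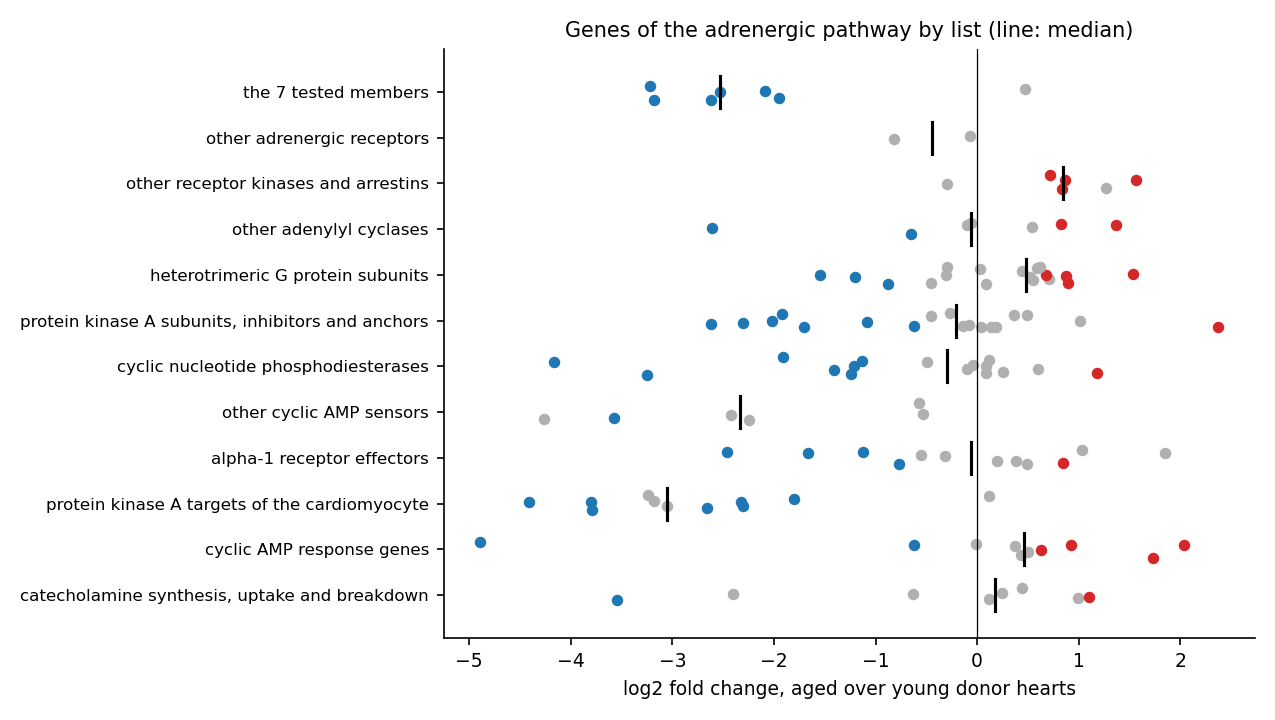
Log2 fold change between aged and young donor hearts of every tested gene of the adrenergic pathway by list, with 1 point per gene, red for genes higher past the limits, blue for genes lower past the limits, grey for neither, and a bar at the median of each list. The median of the 7 tested genes of the group is -2.53, the kinases and arrestins sit at 0.85 and the list of protein kinase A targets, which includes Atp2a2, at -3.05.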

How the data were processed

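RNA was sequenced from 6 left ventricular samples as polyadenylated RNA. The authors deposited 1 table with the raw read count of each gene in each heart, without normalization, and FPKM values. A check of 133500 values showed that the deposited FPKM equal the count over gene length and library total, with 1 exception. The submitters' processing notes name HISAT2 2.0.5, StringTie 1.3.3b, featureCounts 1.5.0-p3, DESeq2 1.16.1 and GATK 3.7 and the build Rnor_6.0, without their roles. Whether counting used strand is not given in the sources used here, so reads of a gene and an overlapping antisense gene cannot be told apart. The gene length column was used as given, and 0 columns of hearts were left unused.

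The test of the counts used edgeR 4.0.16 (filterByExpr, TMM, glmQLFit and glmQLFTest, no covariate) in R 4.3.3, beside limma 3.58.1 and DESeq2 1.42.0. Shares were computed in Python 3.11.15 (scipy 1.17.1) and compared by exact permutation tests, two-sided. Standard errors were derived as the size of the log2 fold change over the root of F. Benjamini-Hochberg adjustment covered all genes tested. Log2 CPM used a prior count of 2. The fit was tested only on simulated counts with the same dispersion for every gene and no outlying heart. That test does not show how the fit behaves with hearts as uneven as these. Even the closest hearts, young animals 3 and 13, were not within sampling noise of each other (10.2 chi-square per degree of freedom, 13357 genes), so each heart was kept as a replicate.

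The genes and lists were chosen with earlier results of these data known. Named were the 8 genes, Grk2, Gnas, Prkaca and Arrb2, up to 2 rises and 2 falls per list by log2 fold change among genes past the limits with a mean of at least 1 CPM, and for each gene the 3 of highest Pearson r. Others named (Arrb1, Grk4, Adra2a, Adra2b, Adra2c, Th, Fth1 and marker genes) were chosen after their values were seen. Some genes that the rule would name, and a planned share that needs one of them, are not reported here. Alternatives were other scalings, filters, tests and thresholds, the cardiomyocyte score (mean log2 CPM of 11 markers) as a covariate, and leaving out each heart. Leaving out young animal 15 and aged animal 3 together, a list of atrial and conduction genes, and the ratios between genes were chosen after seeing the data.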

Additional observations from a re-analysis of the deposited data

How the results depend on the processing

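No paired analysis was possible because the donor groups share only the animal number 3, which names different rats. DESeq2 size factors, TMM without mitochondrial genes, both other filters, DESeq2 and limma-voom left 6 genes of the group lower and 0 higher. Leaving out a heart left 3 to 6 lower, the 3 without aged animal 7, and 0 higher. With library totals, 1 was higher (Grk5) and 5 lower, and the median of all genes moved to 0.46. The receptors and cyclases lay -3.15 to -1.86 from that median, and Grk5 lay 0.45 above it. Scaling by cardiomyocyte markers moved that median to 6.10, with 11023 genes higher and 1 lower, and gave 1 of the group higher, 0 lower, 0 with all aged hearts below and 3 with all above. Under it the differences turned to 1.20 for Adrb1, 1.38 for Adra1a, 0.41 for Adra1b, 2.25 for Adra1d, 3.64 for Adcy5 and 4.57 for Adcy6, which lies -5.70 to -1.53 from that median. The score as a covariate, and a limit on the adjusted p-value, each left 0 of the group lower. Genes lower made up 59.1% of all calls, 31.4% with library totals, 47.3% without young animal 15, 49.1% without young animal 15 and aged animal 3, 50.8% by limma-voom and 0.00907% with cardiomyocyte scaling.

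Of the pathway genes, 18 were higher and 34 lower, against 30 and 22 with library totals, 78 and 0 with cardiomyocyte scaling, 5 and 4 with the covariate, and 0 and 0 by adjusted p-value. Higher genes numbered 31 by limma-voom, 31 without young animal 15 and aged animal 3, and 6 to 32 when a heart was left out (6 without young animal 3 or 13, 9 without aged animal 3, 32 without young animal 15), with 23 to 42 lower. Cardiomyocyte scaling turned Adcy1 to 3.45, Adcy9 to 5.58, Gnb5 to 5.11, Gnas ENSRNOG00000047374 to 5.24, Gnas ENSRNOG00000025889 to 6.26, Akap6 to 1.22, Prkaca to 4.10, Pde4c to 3.82, Pde7b to 3.94, Hcn2 to 1.81, Prkce to 4.60, Plcb4 to 5.48, Pln to 0.25, Atp2a2 to 2.68 and Per1 to 5.66. Gnas ENSRNOG00000025889 was also at 0.18 with library totals.

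Of 28 named pathway genes past the limits, 13 lost their call without at least 1 heart. Adcy7 (1.04 to 1.52) and Fos (1.58 to 2.15) lost it without any heart but young animal 15. Young animals 3 and 13, each left out, ended it for Adcy9 (-0.61 and -0.55), Akap6 (-2.52 and -2.34), Gng2 (0.81 and 0.69), Grk2 (0.65 and 0.64), Grk6 (0.72 and 0.72), Per1 (-0.56 and -0.54) and Plcb3 (0.75 and 0.72), and young animal 13 alone for Adcy1 (-1.88) and Ddc (-3.11). Aged animal 3 ended it for Adcy1 (-2.25), Adcy9 (-0.61), Gng2 (0.62) and Grk6 (0.72), aged animal 4 for Akap6 (-3.06), Ddc (-3.89) and Hcn2 (-3.48), and aged animal 7 for Adcy9 (-0.63), Akap6 (-2.92), Gng2 (1.0) and Pde4b (0.77). The Adcy5 share differed by -8.96 to 2.41 points when a heart was left out. The cause of these changes was not tested. Few reads limit the receptors in aged animal 3, with 7 to 20 reads each, although its library was the largest (24560869 reads).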

Other observations

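Genes of the atrium and the conduction system, a list chosen after the values were seen, were uneven among these ventricular samples. Hcn4, the pacemaker channel, was at 451.8 CPM in young animal 15 and between 0.23 and 27.1 CPM in the other hearts. Aged animal 4 had 69.2 CPM of the atrial myosin light chain Myl7, 47.7 of Myl4, 33.2 of sarcolipin (Sln) and 15.9 of Bmp10, where young animal 3 had 49.7, 4.66, 8.05 and 0.181 CPM. In aged animals 3 and 7 each of these 4 genes lay below 3 CPM. Young animal 15 and aged animal 4 were also the hearts of the 2 groups with the closest Adcy5 levels, 104.3 and 89.96 CPM, and whether these genes have any part in the adrenergic values was not tested.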
